A study of Mus musculus with 3 samples.

Results

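The 10 genes described here encode proteins that carry cholesterol out of macrophages or handle it inside them. They were 10 of the 27998 genes in the count tables, taken by name: the apolipoprotein genes Apoe, Apoc2 and Apoc4, the phospholipid transfer protein gene Pltp, the sterol exporter genes Abca1 and Abcg1, the nuclear receptor gene Nr1h3, the oxysterol enzyme gene Ch25h, the esterification enzyme gene Soat1 and the lysosomal sterol carrier gene Npc2. All 10 had at least 1 UMI in the 3 libraries together. UMIs, or unique molecular identifiers, let each captured RNA molecule be counted a single time.

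The libraries held RNA of single macrophages of sciatic nerve, made with 10x Genomics droplets of version 1. The mice were of the inbred strain C57BL/6. 1 library came from nerve in steady state, 1 from nerve 1 day after crush and 1 from nerve 5 days after crush, an injury that severs axons and leaves the sheath in place. No genotype or transgene was named for any library, and the sort, the sex and age of the mice and the number of mice per library were not stated in the labels. With 1 library per time there was no replicate, no test was possible, and each ratio compares libraries rather than conditions.

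After filtering, 717 cells in steady state, 2781 at day 1 and 2045 at day 5 were monocytes or macrophages by exclusion of a dendritic cell-like cluster of 19 cells, with 1619301, 7921982 and 5480767 UMIs. Median UMIs over all kept cells were 2235, 2555 and 2470 per cell. All 8 macrophage markers were detected in every library, with summed levels of 26374, 24730 and 27960 CPM, where CPM is the UMIs of a gene per 1000000 UMIs of the library. Lyz2 made up most of that sum, and single markers moved both ways, with Csf1r at 768, 240 and 491 CPM and Adgre1 at 404, 119 and 232 CPM, lowest at day 1, and Fcgr1 at 191, 513 and 324 CPM, highest there. Between 2 and 4 of the 8 Schwann cell markers had no UMI, among them Sox10 and Cdh19 in all 3 libraries, and the list summed to 44.5, 23.7 and 21.2 CPM. Fibroblast markers summed to 118, 236 and 151 CPM, of which Gsn alone made up 87.7, 221 and 126 CPM. Between 1 and 10 kept cell barcodes were shared by any pair of libraries, and none by all 3. Intervals are exact, at a level of 95%, and reflect no error other than counting.

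Cholesterol that a macrophage takes up with membrane debris is freed in the lysosome, where NPC2 hands it to the membrane protein NPC1. It can then be stored as an ester by SOAT1, exported by ABCA1 and ABCG1 onto acceptors that contain apolipoproteins such as apolipoprotein E, or oxidised to oxysterols. Oxysterols activate the liver X receptors, of which Nr1h3 encodes LXR alpha, and these receptors are known to switch on Abca1, Abcg1, Apoe, Apoc2, Apoc4, Pltp and Nr1h3 (the last mainly in human macrophages). In nerve, myelin that breaks down after injury is a rich source of cholesterol.

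The promoters of the best known target of the receptors, Abca1, and of Apoe and Pltp, the genes that were lowest at day 1 together, are shown as the 250 bases before the transcription start in RefSeq, build GRCm38.p6, the mm10 assembly. They lie on the minus strand at chr4:53159896-53160145, chr7:19699189-19699438 and chr2:164857709-164857958. Capitals mark a match to the receptor element DR4, searched on both strands as AGGTCA followed after any 4 bases by a second AGGTCA with at most 3 mismatches in all, and the E-box CACGTG. The matches do not overlap.
Abca1: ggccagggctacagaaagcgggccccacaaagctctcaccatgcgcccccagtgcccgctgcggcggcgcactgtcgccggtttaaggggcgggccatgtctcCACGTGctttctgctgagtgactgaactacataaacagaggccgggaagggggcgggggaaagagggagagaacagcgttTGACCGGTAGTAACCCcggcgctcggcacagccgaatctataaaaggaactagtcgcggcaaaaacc
Apoe: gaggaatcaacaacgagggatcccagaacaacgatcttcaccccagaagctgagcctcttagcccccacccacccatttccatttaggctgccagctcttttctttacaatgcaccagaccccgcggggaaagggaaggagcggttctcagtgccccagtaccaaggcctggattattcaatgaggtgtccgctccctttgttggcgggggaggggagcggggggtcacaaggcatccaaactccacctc
Pltp: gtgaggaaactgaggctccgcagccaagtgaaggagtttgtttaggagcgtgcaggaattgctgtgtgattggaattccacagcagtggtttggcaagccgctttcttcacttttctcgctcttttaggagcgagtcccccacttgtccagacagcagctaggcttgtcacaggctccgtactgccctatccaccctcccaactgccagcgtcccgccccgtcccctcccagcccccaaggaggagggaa
The DR4 match in the Abca1 promoter, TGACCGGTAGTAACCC, began 67 bases before the start and read as the reverse strand of the element. The E-box began 147 bases before the start. Promoters were held for 9 of the 10 genes, in 12 windows, and neither motif was matched in a window of another of these genes. Over all 32851 promoter windows, 18.5% held a DR4 match at this tolerance and 6.02% held the E-box. A match is a run of letters only, and the elements known to drive Apoe in macrophages lie in enhancers downstream of the gene, outside this window.

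**Figure D1:**
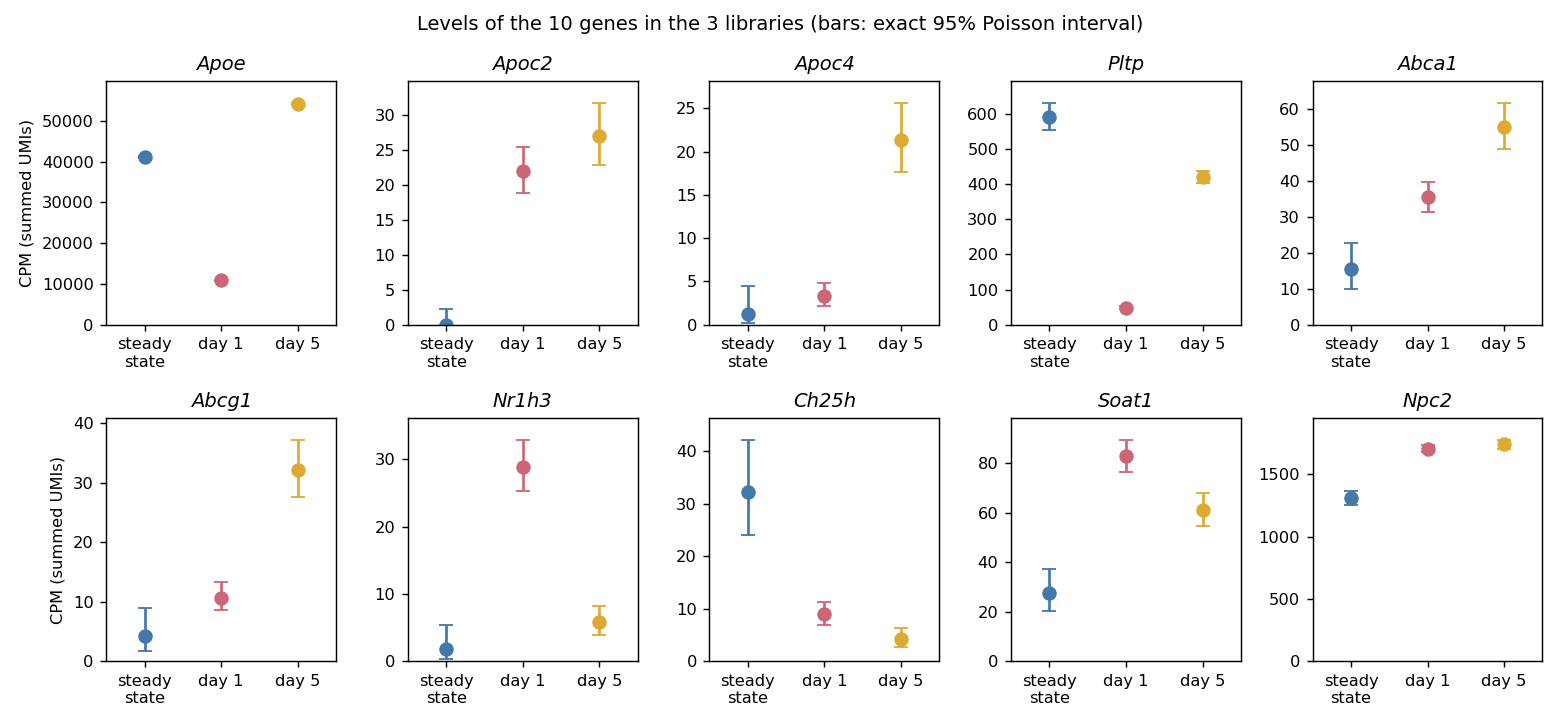
Level of each gene in the 3 libraries, as CPM of summed UMIs, with exact Poisson intervals at 95%. Each panel has its own axis from 0. Apoe and Pltp were lowest at day 1, Nr1h3 and Soat1 were highest there, and Abca1, Abcg1 and Apoc4 were highest at day 5.

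Apoe and Pltp, which encode secreted lipid carriers, were both lowest at day 1 and higher again at day 5. Apoe (chr7:19696109-19699188, minus strand, GENCODE annotation of GRCm38, as for the spans that follow) encodes apolipoprotein E, the main lipoprotein acceptor that macrophages secrete. Its level was 41141 CPM in steady state (interval 40829 to 41455, from 66620 UMIs), 10866 CPM at day 1 (10794 to 10939, 86081 UMIs) and 54113 CPM at day 5 (53918 to 54308, 296579 UMIs). None of these intervals overlapped. Day 1 over steady state the CPM ratio was 0.264, which is 3.79-fold lower (3.75 to 3.83). Day 5 over steady state it was 1.32 (1.30 to 1.33), and day 5 over day 1 it was 4.98 (4.94 to 5.02). Apoe alone made up 4.11%, 1.09% and 5.41% of all UMIs in steady state, day 1 and day 5. No gene had more UMIs in steady state or at day 5, and at day 1 its rank was 6.

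Pltp (chr2:164839518-164857711, minus strand) encodes phospholipid transfer protein, which moves phospholipid between lipoproteins. Its level was 592 CPM in steady state (555 to 631), 49.0 CPM at day 1 (44.2 to 54.1) and 420 CPM at day 5 (403 to 438), from 959, 388 and 2304 UMIs. The order was the same as for Apoe at the low end, with day 1 lowest, but steady state and not day 5 was highest. Pltp was 12.1-fold lower at day 1 than in steady state (10.7 to 13.6). Day 5 over steady state the ratio was 0.710 (0.658 to 0.766), and day 5 over day 1 it was 8.58 (7.70 to 9.58). The last 1515 bases of the annotated Pltp span overlap the end of Ctsa on the other strand, and the labels do not say how the counting treated strand. Ctsa had 525, 368 and 425 CPM, a narrower range than that of Pltp.

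Apoc2 and Apoc4 lie next to each other downstream of Apoe and Apoc1, all on the minus strand of chromosome 7 within 27610 bases. Apoc2 (chr7:19671579-19677941) encodes apolipoprotein C-II, the cofactor of lipoprotein lipase. It had 0 UMIs in 717 steady-state cells, 174 UMIs at day 1 (22.0 CPM, 18.8 to 25.5) and 148 UMIs at day 5 (27.0 CPM, 22.8 to 31.7). With 3 UMIs in place of the 0 in steady state, which is 1.85 CPM, Apoc2 was 11.9-fold higher at day 1. It was 14.6-fold higher at day 5 by the same measure. The exact intervals, with the 0 kept, had lower limits of 9.54 at day 1 and 11.7 at day 5, and no upper limit. Day 5 over day 1 the ratio was 1.23 (0.981 to 1.54), an interval that held 1. Apoc4 (chr7:19678083-19681479), which encodes apolipoprotein C-IV, had 2 UMIs in steady state (1.24 CPM, 0.150 to 4.46), 26 at day 1 (3.28 CPM, 2.14 to 4.81) and 117 at day 5 (21.3 CPM, 17.7 to 25.6). Its ratio day 5 over day 1 was 6.50 (4.22 to 10.4), and day 1 over steady state it was 2.66 (0.665 to 23.1), an interval that held 1.

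The annotated end of Apoc4 and start of Apoc2 are 141 bases apart, and a read-through transcript model, Gm44805, spans both genes and is not a row of the count tables. The tables also held a second Apoc2 row with 0 UMIs in all libraries. The labels do not say how reads in this stretch were assigned, and the split of UMIs between Apoc2 and Apoc4 is uncertain. Apoc1, the neighbour between Apoe and Apoc4, is named here after its values were seen. It had 0, 84 and 204 UMIs in steady state, day 1 and day 5, or 0, 10.6 and 37.2 CPM, and its ratio day 5 over day 1 was 3.51 (2.71 to 4.58). All 3 small apolipoprotein genes of the cluster were thus at 0 or 2 UMIs in steady state, where Apoe was at 66620.

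The exporter genes had their highest levels at day 5. Abca1 (chr4:53030787-53159895, minus strand) encodes the transporter that loads lipid-poor apolipoproteins with cholesterol and phospholipid. It had 15.4 CPM in steady state (9.99 to 22.8), 35.3 CPM at day 1 (31.3 to 39.7) and 54.9 CPM at day 5 (48.9 to 61.5), and the intervals did not overlap. Its ratio was 2.29 day 1 over steady state (1.52 to 3.60), 3.56 day 5 over steady state (2.36 to 5.59) and 1.55 day 5 over day 1 (1.32 to 1.84). Abcg1 (chr17:31057675-31117988, plus strand) encodes the transporter that adds cholesterol to formed high-density lipoprotein. It had 4.32 CPM in steady state (1.74 to 8.91), 10.7 CPM at day 1 (8.57 to 13.3) and 32.1 CPM at day 5 (27.5 to 37.2). Its steady-state level rested on 7 UMIs in 3 cells, 4 of them in 1 cell, and its interval overlapped that of day 1, although the ratio of 2.48 day 1 over steady state had an interval above 1 (1.15 to 6.36). Abcg1 was 7.43-fold higher at day 5 than in steady state (3.53 to 18.7) and 2.99-fold higher than at day 1 (2.30 to 3.92).

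The receptor gene Nr1h3 (chr2:91184061-91202834, minus strand) was highest at day 1, unlike the exporter genes. It had 3 UMIs in steady state, all in 1 cell (1.85 CPM, 0.382 to 5.41), 229 UMIs at day 1 (28.9 CPM, 25.3 to 32.9) and 32 UMIs at day 5 (5.84 CPM, 3.99 to 8.24). The steady-state and day 5 intervals overlapped, and day 1 stood above both. Nr1h3 was 15.6-fold higher at day 1 than in steady state (5.27 to 76.2). It was 4.95-fold lower at day 5 than at day 1 (3.41 to 7.41). Day 5 over steady state the ratio of 3.15 had an interval that held 1 (0.986 to 16.1). The day 1 UMIs came from 119 cells, and 1 cell held 30 of them, which is 13.1%. Another gene model, Gm13783 (chr2:91195906-91202778), lies within the annotated Nr1h3 span on the same strand and is not a row of the count tables. How reads in that stretch were assigned is not stated in the labels. Nr1h2, which encodes the sister receptor LXR beta and is named after its values were seen, differed less, with 42.6, 34.2 and 32.1 CPM in the same order of time. Its 3 ratios lay between 0.754 and 0.939, and each interval held 1.

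Ch25h showed the reverse order to the exporters. It lies at chr19:34473778-34475164 on the minus strand and encodes cholesterol 25-hydroxylase, which makes 25-hydroxycholesterol, an oxysterol that lowers sterol synthesis and can activate liver X receptors. It had 32.1 CPM in steady state (24.0 to 42.1, 52 UMIs in 28 cells), 8.96 CPM at day 1 (7.0 to 11.3, 71 UMIs) and 4.20 CPM at day 5 (2.66 to 6.30, 23 UMIs). The 3 intervals did not overlap, but they take no account of UMIs clumped in cells. In steady state 1 cell held 9 of the 52 UMIs, and 5 cells held 50% of them. Ch25h was 3.58-fold lower at day 1 than in steady state (2.46 to 5.2) and 7.65-fold lower at day 5 than in steady state (4.6 to 13.1). It was 2.14-fold lower at day 5 than at day 1 (1.32 to 3.58).

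Soat1 (chr1:156424525-156474331, minus strand) encodes sterol O-acyltransferase 1, which forms the cholesteryl esters of lipid droplets. It had 27.8 CPM in steady state (20.3 to 37.2), 82.8 CPM at day 1 (76.6 to 89.4) and 61.1 CPM at day 5 (54.8 to 68.0). Day 1 was highest and steady state lowest, with no overlap of intervals. The ratio was 2.98 day 1 over steady state (2.20 to 4.13), 2.20 day 5 over steady state (1.61 to 3.07) and 0.738 day 5 over day 1 (0.645 to 0.843). Npc2 (chr12:84754562-84773152, minus strand) had the smallest ratios between its highest and lowest library of the 10 genes, with 1309 CPM in steady state (1253 to 1366), 1706 CPM at day 1 (1677 to 1735) and 1740 CPM at day 5 (1705 to 1775). Its level was 1.30-fold higher at day 1 (1.25 to 1.37) and 1.33-fold higher at day 5 (1.27 to 1.39) than in steady state. Day 5 over day 1 the ratio was 1.02 (0.993 to 1.05). Npc1, the partner of NPC2 in the lysosome, is named after its values were seen and had 26.6, 32.4 and 32.5 CPM.

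**Figure D2:**
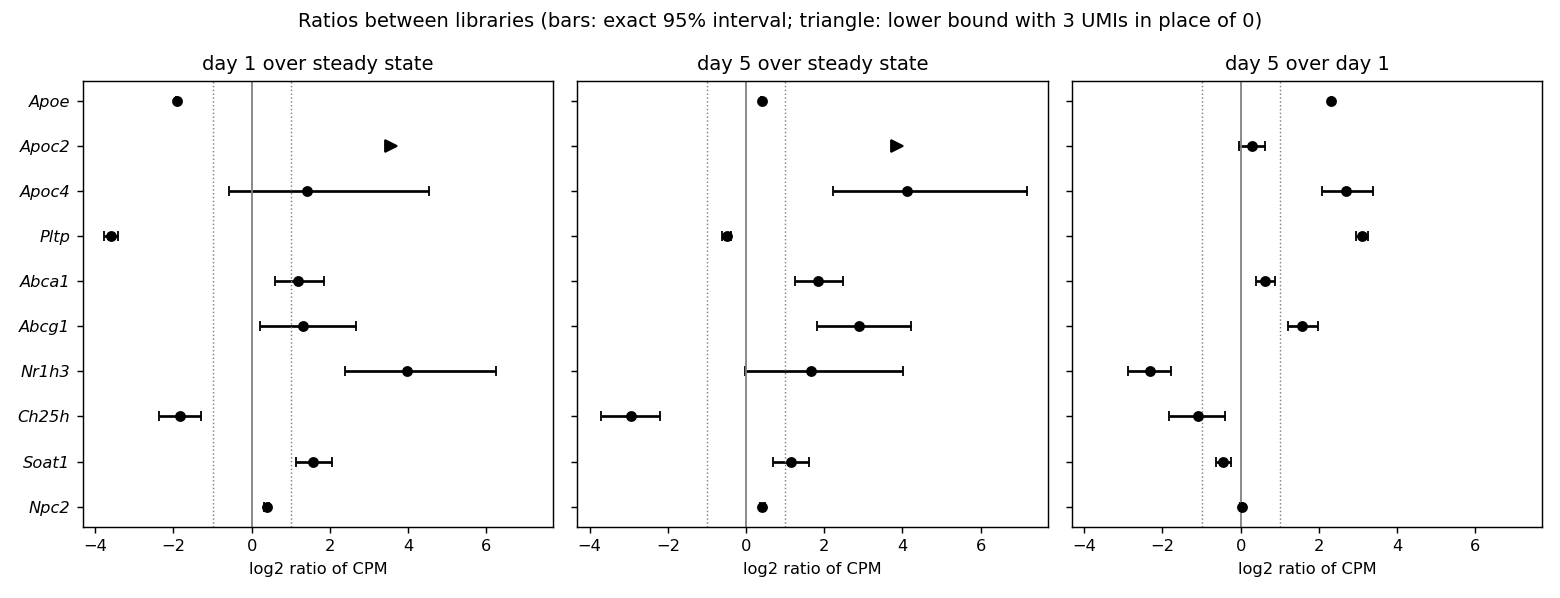
Log2 ratio of CPM for each gene, day 1 over steady state, day 5 over steady state and day 5 over day 1, with exact conditional binomial intervals at 95%. Dotted lines mark a 2-fold difference and triangles a ratio with 3 UMIs in place of 0, drawn without its interval. Pltp and Apoe stand to the left for day 1 over steady state and to the right for day 5 over day 1, and Nr1h3 shows the opposite.

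Of the 10 genes, 9 had a mean of at least 10 CPM over the 3 libraries, as did 6339 genes in all, and Apoc4, with a mean of 8.62 CPM, did not. Day 1 over steady state, 5 of the 9 were at least 2-fold higher (Apoc2, Abca1, Abcg1, Nr1h3 and Soat1), where 15.6% of all measured genes were. The 3 that were at least 2-fold lower were Apoe, Pltp and Ch25h, where 12.2% of all measured genes were. The median log2 ratio was 1.19 over the 9 genes and 0.13 over all measured genes. Day 5 over steady state, the same 5 names were at least 2-fold higher, where 9.62% of all genes were. Ch25h was the 1 gene at least 2-fold lower, where 8.57% were, and the medians were 1.14 and 0.04. Day 5 over day 1, 3 genes were at least 2-fold higher (Apoe, Pltp and Abcg1), where 4.72% were. Nr1h3 and Ch25h were at least 2-fold lower, where 4.43% were, and the medians were 0.30 and −0.08. The comparisons share libraries, and a gene with almost no UMIs in steady state passed the mean only through the injured libraries. Nr1h3 reached 10 CPM only at day 1 (28.9 CPM) and Ch25h only in steady state (32.1 CPM). The filter thus helped to set the direction for such genes, and these counts are descriptions.

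Markers of nerve macrophage classes and monocytes also differed between the libraries, and not all of a list in the same direction. The 12 epineurial macrophage markers, such as Cd209f and Retnla, summed to 15429 CPM in steady state, 757 CPM at day 1 and 2890 CPM at day 5, and none was at 0. The 6 endoneurial markers summed to 3166, 1436 and 1871 CPM. Among them Ccl12 was highest in steady state (1954, 731 and 373 CPM), Trem2 was highest at day 5 (375, 607 and 1160 CPM), and so was Cx3cr1 (117, 33.5 and 179 CPM). The 9 monocyte markers summed to 1026, 3135 and 1400 CPM, with Vcan among those at 0 in steady state. F13a1, the largest part of the steady-state sum, was highest there (750, 386 and 292 CPM). Ccr2 was highest at day 5 (225, 316 and 334 CPM), and the other monocyte markers were highest at day 1. The part of these shifts in the differences between libraries was not tested, but levels within clusters are given below. Clusters were made without the 10 genes or the wider pathway list among the variable genes.

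Of 42 other genes of sterol handling, chosen as partners, targets and receptors of the pathway, 30 had a mean of at least 10 CPM. Day 1 over steady state, 6 reached 2-fold higher levels (20% of the 30, against 15.6% of all measured genes) and 3 reached 2-fold lower ones (10%, against 12.2%), with a median log2 ratio of 0.17. These shares were near those of all genes. Arl4c, a liver X receptor target that encodes a small GTPase, was 8.16-fold higher (131 CPM at day 1 and 16.1 CPM in steady state, interval 5.54 to 12.6). Nceh1, which encodes a hydrolase of cholesteryl esters, was 4.31-fold higher (3.02 to 6.35), and Osbpl8, an oxysterol-binding protein relative, was 4.14-fold higher (2.51 to 7.33). The sterol 27-hydroxylase gene Cyp27a1, another maker of oxysterols, had 5.05 CPM at day 1 and 98.2 CPM in steady state, 19.4-fold lower (13.7 to 28.2). Gpr183, the receptor for an oxysterol made from the product of CH25H, was 4.94-fold lower (4.08 to 5.98), with 27.8 CPM at day 1 and 137 CPM in steady state. Abca9, an ABC transporter gene, was 7.59-fold lower (5.23 to 11.1).

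Day 5 over steady state, 8 of the 30 genes reached 2-fold higher levels (26.7%, against 9.62% of all measured genes) and 3 reached 2-fold lower ones (10%, against 8.57%), with a median log2 ratio of 0.34. Arl4c was 10.8-fold higher (7.31 to 16.6), Nceh1 3.55-fold higher (2.48 to 5.27) and Osbpl8 2.84-fold higher (1.70 to 5.1). Lpl, the lipase that apolipoprotein C-II activates, had 102 CPM at day 5 and 29.6 CPM in steady state, and the ratio was 3.45 (2.57 to 4.74). Trem2, a lipid-sensing receptor that can bind apolipoprotein E, had 1160 CPM at day 5 and 375 CPM in steady state, and the ratio was 3.10 (2.85 to 3.37). Gpr183 was 3.16-fold lower at day 5 (2.62 to 3.81).

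Day 5 over day 1, 5 of the 30 genes reached 2-fold higher levels (16.7%, against 4.72% of all measured genes) and 0 reached 2-fold lower ones (against 4.43%), with a median log2 ratio of 0.33. Cyp27a1 was 7.05-fold higher at day 5 than at day 1 (4.99 to 10.2) and Abca9 3.72-fold higher (2.65 to 5.28). The ratios of Trem2 (1.91, 1.84 to 1.98), Lipa, which encodes lysosomal acid lipase (1.71, 1.54 to 1.90), Lpl (1.66, 1.47 to 1.88) and Gpr183 (1.56, 1.30 to 1.89) were above 1 and under 2. The 2 oxysterol enzyme genes differed in this comparison, since Ch25h was lower at day 5 than at day 1 and Cyp27a1 was higher.

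**Figure D3:**
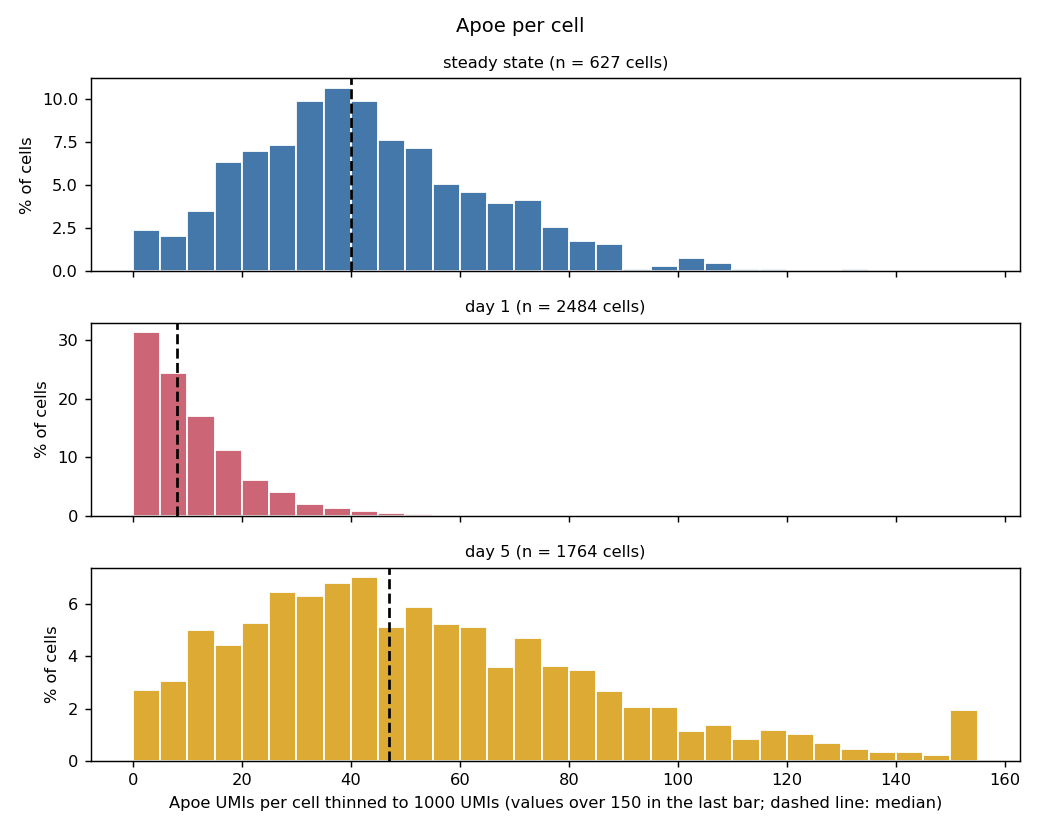
Apoe UMIs per cell after each cell was thinned to 1000 UMIs, as the percent of cells in bins of 5 UMIs, for 627 steady-state, 2484 day 1 and 1764 day 5 cells. Dashed lines mark medians of 40, 8 and 47 UMIs, and the last bar holds all values over 150. The day 1 cells lie at the low end and the day 5 cells spread furthest.

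To compare cells at equal depth, each cell was thinned at random to 1000 UMIs, and 90 steady-state, 297 day 1 and 281 day 5 cells with fewer were left out. Apoe then had a median of 40 UMIs per cell in steady state, 8 at day 1 and 47 at day 5. The range from the 10th to the 90th percentile was 16 to 71.4 in steady state, 1 to 24 at day 1 and 14 to 98 at day 5. At least 50 Apoe UMIs were found in 33.2% of steady-state cells, 0.886% of day 1 cells and 47.8% of day 5 cells. The day 1 difference thus lay across the whole distribution of cells and was not a small low subset, while at least 1 Apoe UMI was still found in 94.6% of day 1 cells, against 99.5% in steady state and 99.8% at day 5. The highest cell had 134, 81 and 293 Apoe UMIs of 1000 in steady state, day 1 and day 5.

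The other genes were seen in fewer cells at this depth. Pltp was detected in 37.8% of steady-state cells (34.0 to 41.7), 4.15% of day 1 cells (3.40 to 5.01) and 29.1% of day 5 cells (27.0 to 31.3), against 53.0%, 9.64% and 49.1% before thinning. Npc2 was detected in 63.0%, 72.9% and 75.4% of cells in the same order, and in 78.9%, 87.7% and 88.4% before thinning. Abca1 was detected in 1.44% (0.658 to 2.71), 3.02% (2.38 to 3.77) and 4.48% (3.56 to 5.55) of cells, and Soat1 in 2.87% (1.71 to 4.50), 6.84% (5.88 to 7.91) and 4.93% (3.97 to 6.05). Before thinning, the shares were 2.65%, 7.41% and 10.5% for Abca1 and 4.32%, 16.0% and 11.8% for Soat1. Abcg1, Apoc2, Apoc4, Nr1h3 and Ch25h were each in at most 2.55% of thinned cells of any library, and in at most 6.41% before thinning. For Apoc2, Apoc4 and Nr1h3 in steady state, 0 of 627 thinned cells had a UMI, so at 1000 UMIs per cell a share below 0.478% (3 counts of 627) or, by the exact interval, 0.587% was under the limit of detection. Before thinning, Apoc4 had UMIs in 2 of the 717 cells (upper limit 1.00%) and Nr1h3 in 1 (0.775%).

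Free RNA can give UMIs to cells that do not express a gene. In the 19 dendritic cell-like cells, with a median of 3577 UMIs, Apoe was at 333 CPM in steady state (1 cell), 754 CPM at day 1 (12 cells) and 5846 CPM at day 5 (6 cells), and it was detected in 61.1% of the 18 cells that could be thinned (35.7 to 82.7). The macrophage levels of Apoe were above these in each library. Pltp was at 48.7 CPM in the dendritic cell-like cells of day 1, from 2 UMIs in 1 cell (5.89 to 176), close to the 49.0 CPM of the day 1 macrophages. So few UMIs could not tell these levels apart. Over the day 1 clusters described below, Pltp ranged from 21.7 CPM in cluster 10 (15.8 to 29.2) to 185 CPM in cluster 2 (126 to 263). The part of free RNA in the day 1 level of Pltp was not tested. Apoc2, Apoc4, Abca1, Abcg1 and Ch25h had 0 UMIs in these cells, Nr1h3 had 1, Pltp 4 and Soat1 7, all of the last in 1 cell. So few cells set no useful limit for the rarely detected genes, and for Soat1 the interval of the share, 5.56% (0.141 to 27.3), held the macrophage share of every library. Npc2, a gene of most cell types, was detected in 88.9% of the thinned dendritic cell-like cells. At the other clustering resolutions used below, 0.5 and 1.5, the dendritic cell-like cluster held 56 and 63 cells. Some cells named dendritic cell-like there were thus counted here as monocytes or macrophages.

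**Figure D4:**
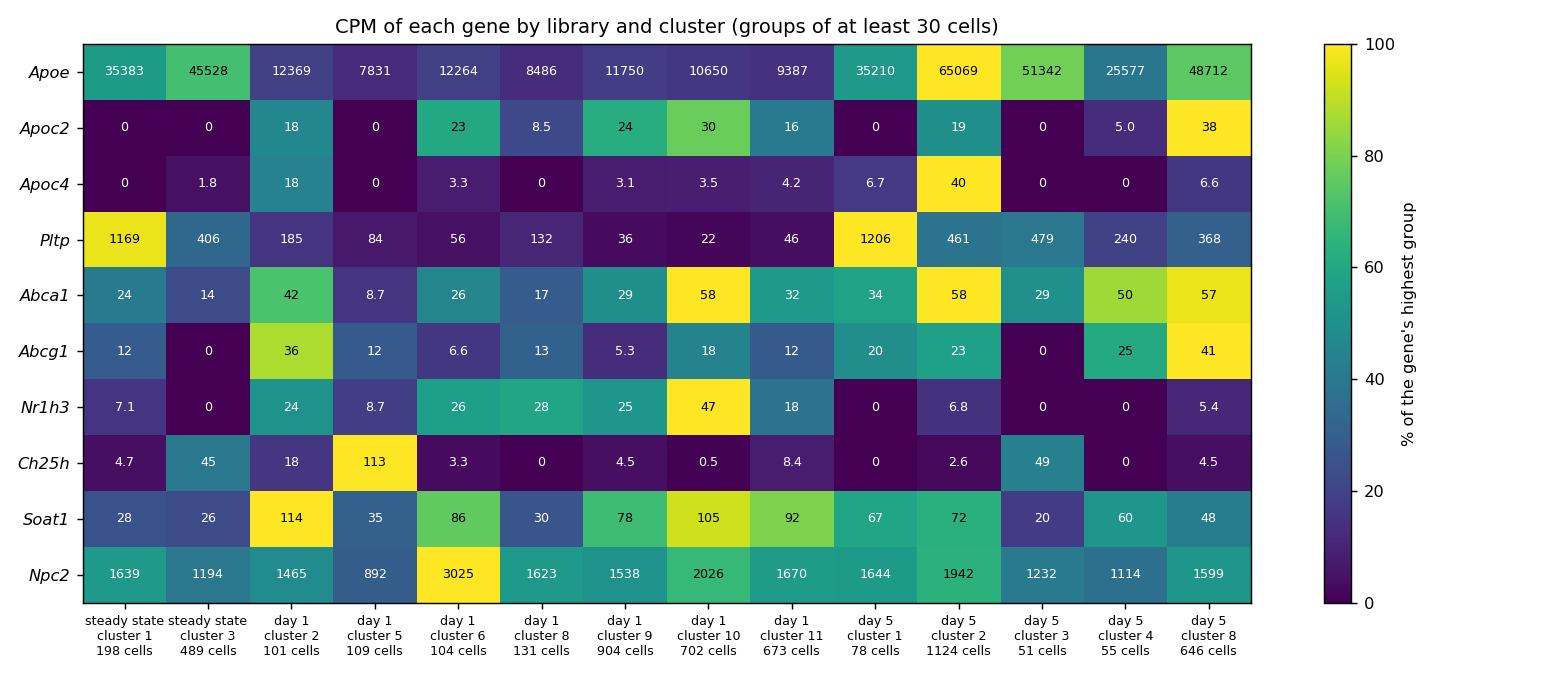
Level of each gene in the 14 groups of cluster and library with at least 30 cells. Numbers are CPM and colours give the percent of the gene's highest group. Pltp peaks in cluster 1 in steady state and at day 5, Ch25h in cluster 5 at day 1, and Apoe is at most 12369 CPM in every day 1 group. Cluster 1 had 29 cells at day 1 and is not shown there.

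Joint clustering of the 3 libraries gave 11 clusters, of which cluster 1 was epineurial macrophage-like, cluster 4 cycling cell-like (although 7 of 8 fibroblast and 4 of 8 Schwann cell markers were also at least 2-fold higher there, and the fibroblast gene Dcn was among its 10 leading genes), cluster 7 dendritic cell-like and cluster 9 monocyte-like by markers. The others are called by number and leading genes. In steady state, the epineurial-like cells had more Pltp than cluster 3, which was led by Lilra5, Hpgd and Mgl2, with 1169 and 406 CPM, a ratio of 2.88 (2.53 to 3.28). Apoe ran the other way, with 35383 CPM in the epineurial-like cells and 45528 CPM in cluster 3, a ratio of 0.777 (0.763 to 0.791). Ch25h was found almost entirely in cluster 3 in steady state, with 2 UMIs in the epineurial-like cells (4.74 CPM) and 50 UMIs in cluster 3 (45.1 CPM), a ratio of 0.105 (0.0124 to 0.400). The 3 Nr1h3 UMIs of steady state and 5 of its 7 Abcg1 UMIs lay in the epineurial-like cluster.

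The epineurial-like cells and cluster 3 were also present at day 5, with 78 and 51 cells, and there the main carrier genes were close to their steady-state levels. In the epineurial-like cells, Apoe had 35210 CPM at day 5 and 35383 CPM in steady state, and the ratio was 0.995 (0.964 to 1.03). Pltp had 1206 CPM at day 5 and 1169 CPM in steady state, and the ratio was 1.03 (0.864 to 1.23), and Npc2 had a ratio of 1.00 (0.863 to 1.16). In cluster 3 the ratio day 5 over steady state was 1.13 for Apoe (1.1 to 1.16) and 1.18 for Pltp (0.860 to 1.59). Ch25h had 5 UMIs in the day 5 cells of cluster 3 (48.9 CPM) and 50 UMIs in its steady-state cells (45.1 CPM), a ratio of 1.08 (0.337 to 2.70), while over the whole libraries it was 7.65-fold lower at day 5. These clusters held 27.6% and 68.2% of the steady-state cells and 3.81% and 2.49% of the day 5 cells.

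At day 1, Apoe lay between 7831 CPM in cluster 5 and 12369 CPM in cluster 2 over the 7 groups of at least 30 cells, a range of 1.58-fold. Every day 1 group was thus below each of the other 7 groups, of which the lowest was the cycling-like cells of day 5 at 25577 CPM. At this Leiden resolution of 1, no cluster with at least 30 cells at day 1 had as many in steady state. At other resolutions, examined after seeing the data, 1 cluster each did, and Apoe was lower at day 1 in both. At resolution 0.5 it had 8507 CPM in 117 day 1 cells and 45349 CPM in 487 steady-state cells, 5.33-fold lower (5.14 to 5.53). At resolution 1.5 it had 15592 CPM in 31 day 1 cells and 35172 CPM in 207 steady-state cells, 2.26-fold lower (2.1 to 2.42). Pltp was 4.67-fold lower at day 1 in the first of these clusters (3.25 to 6.96) and 2.38-fold lower in the second (1.59 to 3.72). The first may join cells that resolution 1 kept apart by library, which was not tested. At resolution 1, cluster 5 held 109 day 1 cells and 1 steady-state cell, and cluster 3 held 14 and 489. The epineurial-like cluster 1 held 29 day 1 cells and 198 steady-state cells, and so fell just short of 30 at day 1. Between day 5 and day 1, 2 clusters at resolution 1 could be compared. In cluster 2, led by Ccl8, Gdf15 and Igf1, Apoe had 65069 CPM at day 5 and 12369 CPM at day 1, a ratio of 5.26 (5.04 to 5.50). In cluster 8, led by the antigen presentation genes H2-Ab1 and H2-Aa, it had 48712 CPM at day 5 and 8486 CPM at day 1, a ratio of 5.74 (5.56 to 5.93). Both ratios were at least as high as the 4.98 over the libraries, but this held at resolution 1 and not at the others. The ratios lay between 3.23 and 5.80 in 4 clusters at resolution 0.5 and between 2.28 and 7.61 in 5 clusters at resolution 1.5, so Apoe was higher at day 5 in every cluster compared, by less than over the libraries in some.

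Pltp differed less within clusters 2 and 8 than over the libraries. Its ratio day 5 over day 1 was 2.49 in cluster 2 (1.74 to 3.68) and 2.79 in cluster 8 (2.16 to 3.67), against 8.58 over all cells. The ratios of Pltp lay between 2.83 and 6.30 in 4 clusters at resolution 0.5 and between 2.35 and 6.16 in 5 clusters at resolution 1.5. All were under 8.58, but some of their intervals held it. The day 1 cells of clusters 2 and 8 had 185 and 132 CPM of Pltp, while the day 1 cells of clusters 9 and 10 had 35.7 and 21.7 CPM. In cluster 8 the exporter genes were also higher at day 5 than at day 1, with ratios of 3.33 for Abca1 (1.64 to 7.86) and 3.21 for Abcg1 (1.42 to 8.95), each from under 10 UMIs at day 1. In cluster 2 the ratios were 1.39 for Abca1 (0.657 to 3.52) and 0.651 for Abcg1 (0.281 to 1.85), and both intervals held 1. Nr1h3 in cluster 8 was 5.15-fold lower at day 5 than at day 1 (2.20 to 12), from 13 UMIs at each time, while its ratio in cluster 2 was 0.284 with an interval that held 1 (0.0917 to 1.17). Npc2 in cluster 8 did not differ beyond counting error, with 1599 CPM at day 5 and 1623 CPM at day 1, but in cluster 2 it was 1.32-fold higher at day 5 (1.16 to 1.51).

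Other genes were spread unevenly over the clusters of 1 library. At day 1, cluster 10, led by Cxcl3, Slpi and Ppbp, had higher levels of receptor and exporter genes than the monocyte-like cluster 9. Nr1h3 had 46.9 CPM in cluster 10 and 24.8 CPM in cluster 9, a ratio of 1.90 (1.40 to 2.56). Abca1 had 58.3 and 29.0 CPM, a ratio of 2.01 (1.53 to 2.65), and Abcg1 had 18.3 and 5.35 CPM, a ratio of 3.42 (1.92 to 6.30). Apoe was slightly lower in cluster 10 than in cluster 9, with a ratio of 0.906 (0.892 to 0.921). Cluster 5, led by Stard6 and Ccl12, held 39 of the 71 Ch25h UMIs of day 1 in 3.92% of the cells, at 113 CPM against 4.22 CPM in all other day 1 cells, a ratio of 26.7 (16.3 to 44.0). The Npc2 level ranged from 892 CPM in cluster 5 to 3025 CPM in cluster 6, which was led by the interferon response genes Cxcl10, Rsad2 and Ifit3.

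At day 5, the neighbouring genes Apoc4 and Apoc2 were highest in different clusters. Apoc4 had 40.4 CPM in cluster 2 (95 UMIs) and 6.62 CPM in cluster 8 (16 UMIs), a ratio of 6.10 (3.57 to 11.1). Apoc2 had 19.1 CPM in cluster 2 (45 UMIs) and 38.5 CPM in cluster 8 (93 UMIs), a ratio of 0.497 (0.340 to 0.717). The intervals lay on opposite sides of 1, so the split of UMIs between the genes was not the same in both clusters. Abcg1 followed Apoc2 in direction, with a ratio of 0.571 (0.403 to 0.802), and Abca1 had a ratio of 1.03 (0.805 to 1.31).

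Across the 14 groups, which share libraries and differ in depth, Pearson's r of log2(CPM + 10) with Apoe was 0.809 for Pltp, −0.762 for Nr1h3 and −0.01 for Abcg1, as descriptions. Of 2154 other genes, those most like Apoe in this measure were Cox7a2l (0.914), Ypel3 (0.881), Unc93b1 (0.871), Itm2b (0.871) and Tmem59 (0.863). Cox7a2l had 524, 195 and 465 CPM in steady state, at day 1 and at day 5, and Itm2b had 6881, 2834 and 5276 CPM. Genes most like Pltp included Retnla (0.946), C1qb (0.912), Csf1r (0.908) and C1qa (0.906), and the r of Pltp with Nr1h3 was −0.784. Retnla, an epineurial marker here, had 6786, 84.7 and 1791 CPM, and C1qa had 7954, 1566 and 5232 CPM.

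Within the cells of 1 library, detection of a gene differed little with detection of another at this depth. Intervals were wide for the rarer genes, and pairs with Apoe could hardly show a difference. Of the 45 pairs of genes, 11 in steady state, 19 at day 1 and 22 at day 5 had at least 5 cells in the product of their detection shares at 1000 UMIs. For all but 1 of these, the share of cells with the second gene had overlapping intervals in cells with and without the first. The exception was Apoe and Npc2 at day 5, and it rested on 3 cells without Apoe, none of which had Npc2. The median of observed over product was 1.00 in steady state, 1.02 at day 1 and 1.00 at day 5. Apoe had no UMI in only 0.478%, 5.39% and 0.170% of these cells in steady state, day 1 and day 5. Pairs with Apoe thus had to lie near the product, and they are part of these medians. The pair with the largest excess was Apoc4 and Pltp at day 5, where 44.1% of the 34 cells with Apoc4 had Pltp (27.2 to 62.1), against 28.8% of the cells without it (26.7 to 31.0). In steady state, Pltp and Ch25h were found together in 3 cells, where the product gave 6.05. This ratio of 0.496 became 1.83 at 500 UMIs per cell, so it gave no direction. Of the 10 genes, a median of 2 was detected per cell in each library, and 3 or more were detected in 27.9% of steady-state cells, 13.2% of day 1 cells and 33.0% of day 5 cells.

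**Figure D5:**
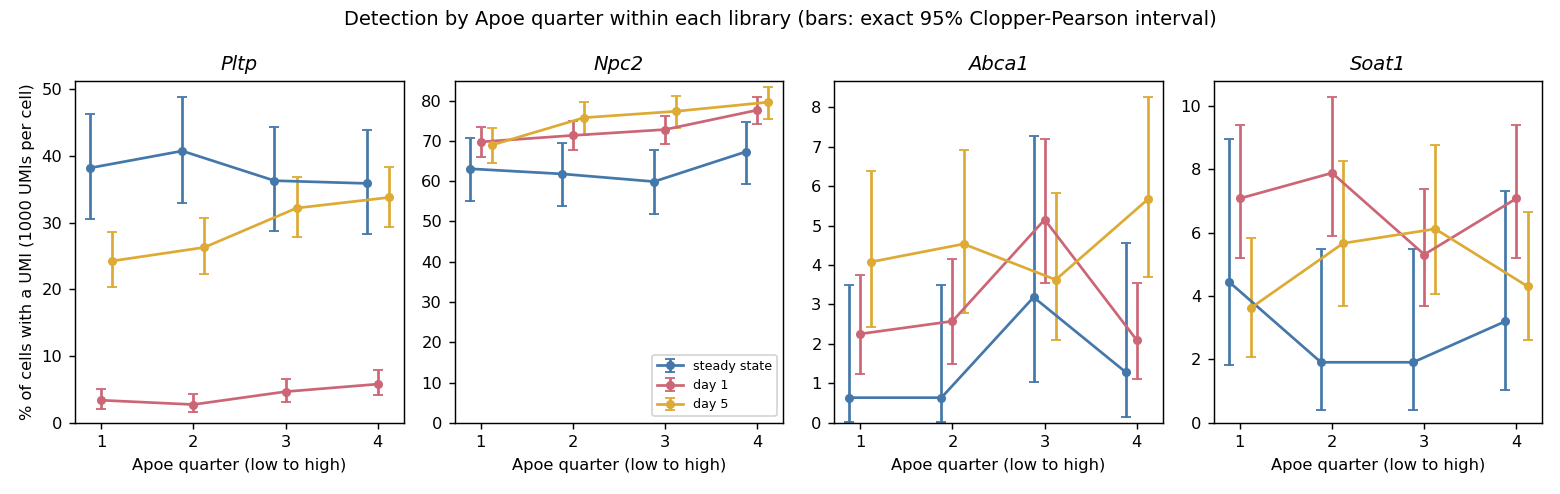
Percent of cells with a UMI of Pltp, Npc2, Abca1 and Soat1 in 4 equal groups of cells ordered by Apoe UMIs at 1000 UMIs per cell, in each library, with exact Clopper-Pearson intervals at 95%. Shares of Pltp and Npc2 at day 5 and of Npc2 at day 1 are higher in the upper groups, and Abca1 and Soat1 show no steady order.

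The cells of each library were split into 4 equal groups by their Apoe count. Pltp and Npc2 were detected more often in cells with more Apoe at day 5, and Npc2 also at day 1. At day 5, Pltp was found in 33.8% of cells in the highest group (29.4 to 38.4) and in 24.3% in the lowest (20.3 to 28.5). Npc2 was found in 79.6% (75.5 to 83.3) and 68.9% (64.4 to 73.2). Apoc4 was found in 4.31% of cells in the highest Apoe group at day 5 (2.61 to 6.65) and in 1.13% of cells in each of the other 3 (0.369 to 2.63), with intervals that overlapped slightly. In steady state, Pltp was found in 35.9% of cells in the highest group (28.4 to 44.0) and in 38.2% in the lowest (30.6 to 46.3), with overlapping intervals. The steady-state shares of Npc2 were 67.3% (59.3 to 74.6) and 63.1% (55.0 to 70.6), which overlapped as well. At day 1 the shares of Pltp were 5.80% (4.09 to 7.94) and 3.38% (2.11 to 5.12), also overlapping. Those of Npc2 at day 1 were 77.6% (74.1 to 80.8) and 69.7% (65.9 to 73.3), and these intervals did not overlap. Cluster 2, the day 5 group with the highest Apoe level, also had more Apoc4, Pltp and Npc2 than cluster 8 at day 5, and the part of cluster membership in these shares was not tested. The mean Apoe count per cell in the highest and lowest group was 72.0 and 16.7 in steady state, 25.4 and 1.58 at day 1, and 102 and 16.0 at day 5.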

How the data were processed

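The deposited tables hold whole-number counts of UMIs per gene and cell barcode, not normalized. The authors made them with Cell Ranger 2.0.2 on mm10, per the submitters' processing notes, and 731, 2796 and 2059 barcodes were listed for steady state, day 1 and day 5. The sources used here do not state the barcode calling, any removal of doublets or the treatment of multi-mapped reads. A deposited table that pools the 3 libraries was not used.

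Barcodes with at least 200 genes and at most 10% mitochondrial UMIs were kept, which removed 6 of 5586. Scrublet, run per library in scanpy 1.11.5, called 18 of 5580 cells (0.323%), which were left out, and so few calls cannot be relied on. All cells were clustered jointly, with no integration of libraries (Leiden algorithm of python-igraph 0.11.9 at resolution 1, on 15 neighbours in 30 principal components of 2000 variable genes). A cluster took the name of the marker list with most genes at least 2-fold above other cells, where at least 3 were and at least 2 of the list were among its 10 leading genes, with no other list holding more there. For each library, UMIs of all cells but the dendritic cell-like ones were summed and scaled to CPM. Intervals are exact Poisson for CPM, conditional binomial for ratios and Clopper-Pearson for shares (scipy 1.17.1). They cover counting error only, and a 0 was replaced by 3 counts per library. Ratios and thinning were tried on simulated Poisson counts, which do not cover the clumping of UMIs in single cells.

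The members, gene lists and rules were chosen with earlier results of these data known. Named are all 10 members, up to 6 pathway genes per comparison with the largest ratio among those with a mean of at least 20 CPM, and the 5 genes most like Apoe and Pltp among those of at least 50 CPM, of which 1 is not reported here. Any other gene is named as chosen after its values were seen, as a cluster's leading gene, or as a marker.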

Additional observations from a re-analysis of the deposited data

How the results depend on the processing

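No paired analysis was possible because each time point was 1 library and the labels give no replicate numbers. Of 270 member ratios recomputed under 9 alternatives of scaling or cell choice, of which leaving out the shallow cluster 11 was added after seeing the data, 1 changed sign: the log2 ratio of Npc2, day 5 over day 1, was −0.02 with the mean of per-cell CPM and 0.03 as reported. 3 crossed the 2-fold line: Ch25h, day 5 over day 1, was at −0.96 on totals without the 50 most abundant genes, and Apoc4 and Abca1, day 1 over steady state, were at 0.31 and 0.99 with the mean of per-cell CPM. Of the 270 ratios, 22 lay outside their reported intervals, and 8 moved by over 1.5-fold. With the mean of per-cell CPM, day 1 and day 5 over steady state, Abcg1 was at 2.22 and 3.57 (1.31 and 2.89 as reported), Nr1h3 at 4.64 and 2.31 (3.96 and 1.66) and Apoc4 at 0.31 and 2.85 (1.41 and 4.11), and without cells with Schwann cell, fibroblast or endothelial markers Apoc4 was at 2.30 and 4.90. Of 120 shares of cells recomputed at other thinning depths or with at least 2 UMIs, 81 lay outside their reported intervals. Totals without the 50 most abundant genes shifted the median of all genes by −0.16 (day 1 over steady state) and 0.13 (day 5 over day 1).

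The counts of members follow the filter and the fold. With a mean of at least 50 CPM, 4 members were left, and 1 was at least 2-fold higher at day 1 than in steady state (17.3% of all genes), 1 higher at day 5 than in steady state (7.70%), 0 lower at day 5 than in steady state (6.79%) and 0 lower at day 5 than at day 1 (4.72%). With a fold of 4, 2 were higher (4.02% of all genes) and 1 lower (3.90%) at day 1 than in steady state, 2 higher at day 5 than in steady state (2.49%) and 1 lower at day 5 than at day 1 (0.647%). On totals without the 50 most abundant genes, 1 was lower at day 5 than at day 1 (3.11%). The other 69 recomputed counts stayed within 1.5 times the reported ones.

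The lowest log2 ratio of Apoe, day 5 over day 1, within any cluster was 2.40 over 2 clusters, 1.69 over 4 at Leiden resolution 0.5 and 1.19 over 5 at resolution 1.5. Levels under 10 UMIs, which include Apoc4, Abcg1 and Nr1h3 in steady state, set the widest intervals.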
